A study of Mus musculus with 6 samples.

Results

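Chondroitin sulfate and heparan sulfate are the sulfated sugar chains that proteoglycans carry, and 43 mouse genes for building, sulfating and editing them were followed in bone and cartilage cells of the newborn mouse. The members were chosen by gene symbol, from the known steps of the pathway, out of 23364 symbols in the deposited table, and each of the 43 was found there. Several steps precede any sulfated chain: supply of activated sulfate and UDP-sugars, assembly of a short linker sugar on the core protein, and polymerization of the chain. The linker is shared, and the next sugar added decides whether a chain becomes chondroitin or heparan. In cartilage the dense negative charge of chondroitin sulfate on aggrecan holds water, and heparan sulfate at the cell surface binds growth factors of the FGF, BMP, Wnt and hedgehog families.

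Osteoblasts were represented by 3 libraries from calvaria of C57BL/6 mice at postnatal day 1, made from cells that were released with Liberase TM and sorted by GFP, with the genotype given as Sp7 positive. Chondrocytes were represented by 3 libraries from rib cartilage of wild-type C57BL/6 mice at postnatal day 1, with digestion in PRONASE and Collagenase D and no sort stated. What drives the GFP is given only by the library name Sp7-GFP, and neither the number of mice per library nor whether the replicates came from separate litters is stated, so p-values measure the spread between these libraries, which may be technical. Cell type, skeletal site, sorting, genotype label and enzyme cannot be told apart in this design, and in bulk RNA fewer cells of a type and less RNA per cell cannot be told apart either.

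The libraries carried the identity their labels give. All 6 osteoblast markers were higher in osteoblasts, with a summed level of 20476 to 22254 RPKM against 2268 to 7770 RPKM in chondrocytes, and all 6 chondrocyte markers were higher in chondrocytes, at 67.7 to 82.4 RPKM in osteoblasts against 30501 to 53541 RPKM in chondrocytes. Chondrocyte replicate 3 stood apart: Col1a1, the main collagen of bone and fibrous tissue, was at 7765 RPKM there against 2270 and 2259 RPKM in replicates 1 and 2, and the 7 markers of perichondrium, tendon and fibroblasts summed to 4690 RPKM against 1588 and 1316 RPKM. In osteoblasts that list summed to 2601 to 3825 RPKM, and 5 of its 7 genes were called higher in osteoblasts, 1 higher in chondrocytes and 1 was not called; its part in the results below was not tested. Myeloid markers summed to 16.8 to 20.1 RPKM in osteoblasts, against 1.31 to 7.72 RPKM in chondrocytes, endothelial markers stayed under 5 RPKM in all 6 libraries, and the epithelial list stayed under 1 RPKM. Skeletal muscle markers summed to 9.25 to 40.2 RPKM in chondrocytes through Tnnt3, with Ckm listed at the table's lowest value in every library. Erythroid markers summed to 13.5 to 29.2 RPKM in osteoblasts, against 2.92 to 12.8 RPKM in chondrocytes. Mast cells make heparin, and their 5 markers summed to 7.97, 0.641 and 13.4 RPKM in osteoblast replicates 1 to 3 and to at most 0.284 RPKM in any chondrocyte library.

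Levels are RPKM, read numbers adjusted for transcript length and sequencing depth, added up over all transcripts of a gene. The limma test on log2(RPKM + 1) covered the 11218 genes that reached 1 RPKM in 3 or more libraries, and a call means a p under 0.05 after Benjamini-Hochberg adjustment over all of them. Differences are osteoblast minus chondrocyte on that log2 scale, so low genes are understated. Of the 43 members 40 were tested: 21 were called higher in osteoblasts, 10 higher in chondrocytes and 9 were not called. Among all tested genes 55.5% were called higher in osteoblasts and 13.5% higher in chondrocytes, and 69.0% in either direction. The osteoblast and chondrocyte libraries did not overlap for 33 of the 40 tested members, with osteoblasts above for 20 and chondrocytes above for 13, against 75.6%, 60.4% and 15.3% of all tested genes. The median log2 difference was 0.31 over the tested members and 0.43 over all tested genes, so a gene at 0 lay on the chondrocyte side of the middle. Dividing each library by its median-of-ratios factor shifted the median of all genes by -0.38, and the members then counted 11 higher in osteoblasts and 18 higher in chondrocytes, against 33.1% and 29.0% of all genes tested on that scale, where 62.1% were called in either direction. A call is said below to hold after rescaling where the deposited values and all 3 rescalings tried gave it. That was so for 11 osteoblast calls, against 32.2% of all genes, and for all 10 chondrocyte calls, against 13.5% of all genes. Each of the 1512 chondrocyte calls among all tested genes held too. The rescalings move each difference towards chondrocytes by their construction, so holding adds no support to a chondrocyte call.

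**Figure D1:**
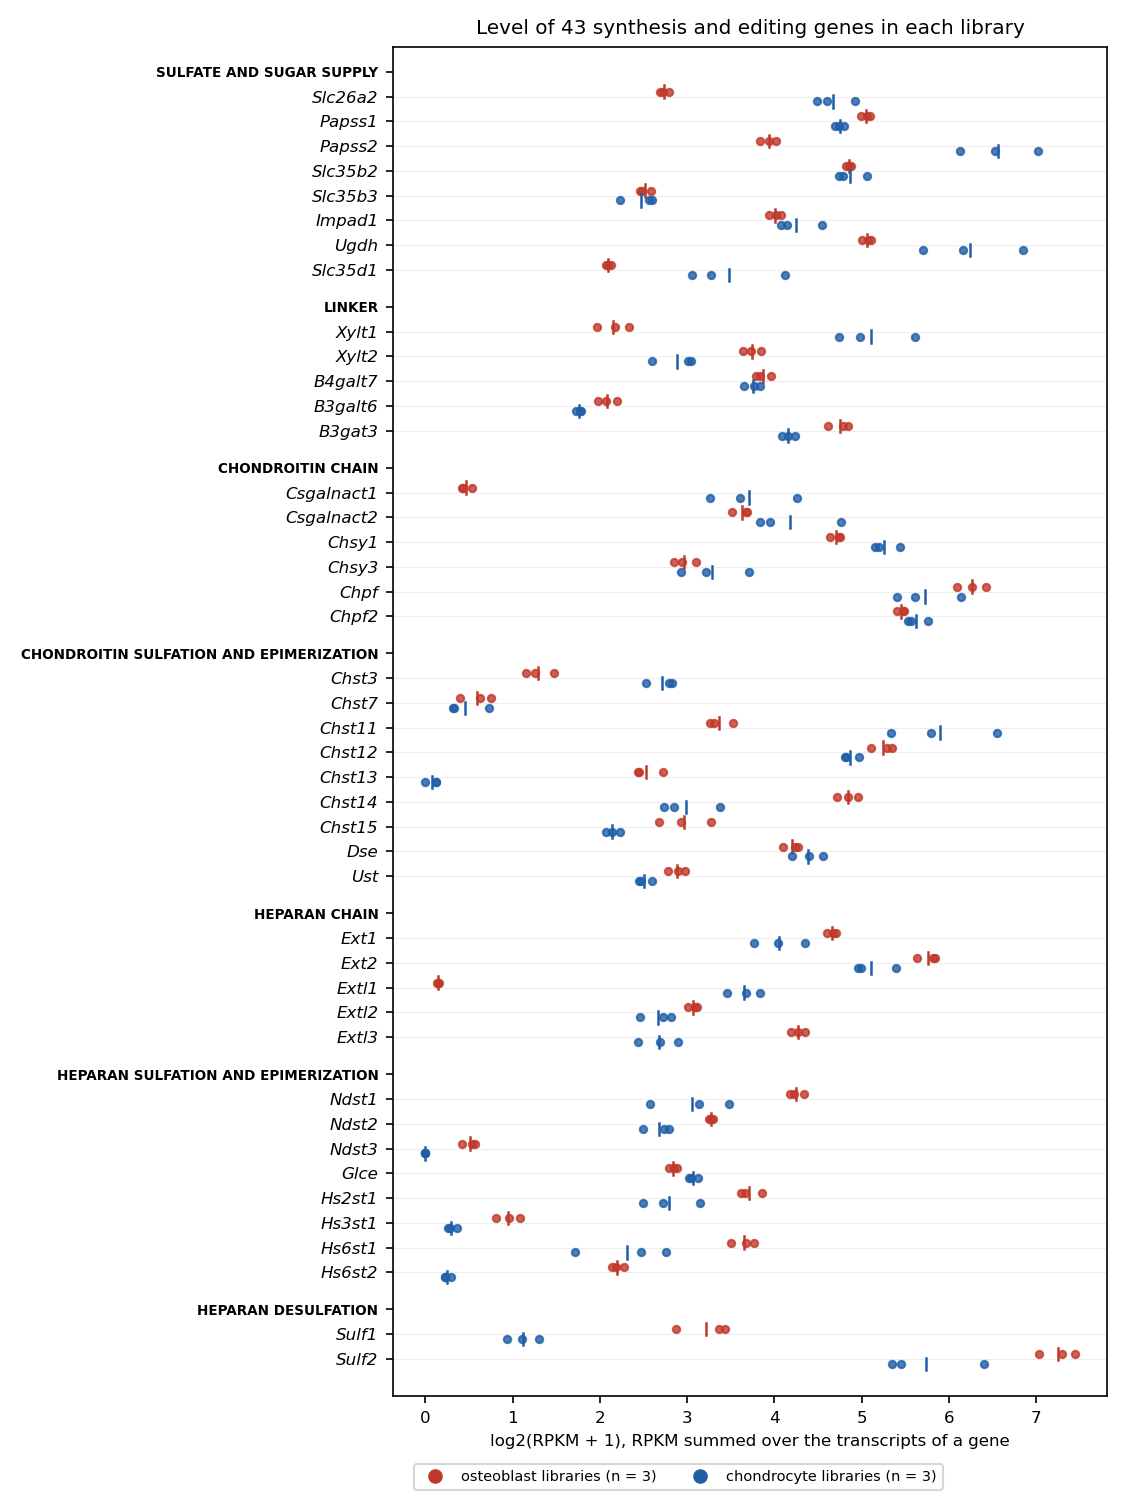
Level of each of the 43 genes in each library on the log2(RPKM + 1) scale, grouped by step, with osteoblast libraries in red above chondrocyte libraries in blue and a tick at the mean of 3. Csgalnact1 and Extl1 lie under 1 on this scale in osteoblasts and well above it in chondrocytes, and Chst13 and Hs6st2 lie the other way round.

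Supply of activated sulfate and of sugar was on the chondrocyte side. Of 8 genes, 4 were higher in chondrocytes, 1 was higher in osteoblasts and 3 were not called. Among all tested genes 13.5% were called higher in chondrocytes and 55.5% higher in osteoblasts. Slc26a2, the sulfate transporter of the plasma membrane whose loss causes diastrophic dysplasia in humans, stood at 5.94, 5.58 and 5.47 RPKM in osteoblasts, against 23.3, 29.4 and 21.4 RPKM in chondrocytes. The groups were far apart, with a log2 difference of -1.94 ± 0.13 (SE, adjusted p = 1.87e-05). Ugdh, which oxidizes UDP-glucose to the UDP-glucuronic acid that both chains need, was at 33.5, 31.1 and 32.7 RPKM in osteoblasts, against 70.6, 114 and 50.9 RPKM in chondrocytes (log2 difference -1.17 ± 0.26, adjusted p = 0.00557). Slc35d1, which carries UDP-sugars into the endoplasmic reticulum, was at 3.26, 3.19 and 3.36 RPKM in osteoblasts, against 8.64, 16.4 and 7.28 RPKM in chondrocytes (-1.39 ± 0.26, adjusted p = 0.00235). Chondrocyte replicate 2 was the highest library for all 3 genes.

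The isozymes that make PAPS, the sulfate donor of every sulfotransferase, separated the cell types. Papss2, the gene mutated in the brachymorphic mouse, stood at 15.2, 14.4 and 13.3 RPKM in osteoblasts, against 91.2, 129 and 68.8 RPKM in chondrocytes. It was 6.73-fold lower in osteoblasts by mean RPKM (log2 difference -2.62 ± 0.21, adjusted p = 4.66e-05), and 1.30% of tested genes had a more chondrocyte-sided difference. Papss1, the other isozyme, was at 33.1, 32.4 and 30.7 RPKM in osteoblasts, against 26.8, 25.7 and 24.97 RPKM in chondrocytes. That narrow difference was called (0.30 ± 0.09, adjusted p = 0.0171), but it turned to -0.13 (adjusted p = 0.252) after median-of-ratios rescaling and was lost without osteoblast replicate 1 or 2 (adjusted p = 0.0733 and 0.0648). Within a library no rescaling applies: Papss2 held 31.5%, 30.7% and 30.2% of the summed RPKM of both isozymes in osteoblasts and 77.3%, 83.3% and 73.4% in chondrocytes. Papss1 was thus the more abundant isozyme in each osteoblast library and Papss2 in each chondrocyte library.

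The start-site regions of both Papss genes are shown because the more abundant isozyme differed between the cell types. Beside them are those of Extl1 and Chst13, the members with the largest difference on each side. Each is the 250 bases before the start farthest upstream in RefSeq, build GRCm38.p6, and capitals mark GC boxes (GGGCGG or its reverse complement) and RUNX core matches (TGTGGT or its reverse complement).
Papss1, chr3:131564518-131564767, plus strand: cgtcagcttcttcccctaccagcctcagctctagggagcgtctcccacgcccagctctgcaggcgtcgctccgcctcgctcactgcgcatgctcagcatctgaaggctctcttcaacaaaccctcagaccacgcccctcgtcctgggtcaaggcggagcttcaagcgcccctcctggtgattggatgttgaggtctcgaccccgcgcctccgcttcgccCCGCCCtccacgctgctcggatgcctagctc
Papss2, chr19:32595465-32595714, plus strand: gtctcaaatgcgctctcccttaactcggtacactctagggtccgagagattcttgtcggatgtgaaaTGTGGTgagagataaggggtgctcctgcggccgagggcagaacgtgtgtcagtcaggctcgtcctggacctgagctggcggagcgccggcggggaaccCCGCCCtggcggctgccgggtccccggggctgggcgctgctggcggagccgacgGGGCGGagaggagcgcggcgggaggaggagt
Extl1, chr4:134372548-134372797, minus strand: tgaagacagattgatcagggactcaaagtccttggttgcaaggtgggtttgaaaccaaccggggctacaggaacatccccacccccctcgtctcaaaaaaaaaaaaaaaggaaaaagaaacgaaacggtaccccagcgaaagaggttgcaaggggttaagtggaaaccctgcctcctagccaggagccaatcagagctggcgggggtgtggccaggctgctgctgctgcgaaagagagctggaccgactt
Chst13, chr6:90325186-90325435, minus strand: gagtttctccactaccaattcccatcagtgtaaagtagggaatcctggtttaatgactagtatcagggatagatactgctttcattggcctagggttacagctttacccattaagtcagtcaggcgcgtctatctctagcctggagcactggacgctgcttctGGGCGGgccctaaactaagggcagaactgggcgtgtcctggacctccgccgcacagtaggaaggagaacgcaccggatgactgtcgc

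Both Papss windows are rich in G and C, at 65.2% for Papss1 and 67.6% for Papss2, and Extl1 and Chst13 stand at 53.2% and 52.8%. The median over the 34 members with a RefSeq window was 64.6%, against 52.0% over all 27025 symbols with one. A GC box was in 23 of those 34 windows (67.6%), against 32.9% of all windows. It was in 7 of 8 windows of members whose osteoblast call held after rescaling and in 6 of 7 of members with a chondrocyte call. A SOX core (AACAAT, either strand) was in 0 of the 34 windows, against 9.65% of all, and a RUNX core in 2, against 14.2% of all. These matches describe letters in a short window only, and all symbols with a window, expressed or not, form the comparison.

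Transporters and clearance steps that serve sulfation in the Golgi were not called in the deposited values. Slc35b2, the main PAPS transporter of the Golgi, was at 28.3, 27.3 and 27.8 RPKM in osteoblasts, against 25.7, 32.3 and 26.6 RPKM in chondrocytes (log2 difference -0.01 ± 0.11, adjusted p = 0.927). Its relative Slc35b3 was at 4.50 to 5.01 RPKM in osteoblasts, against 3.70 to 5.07 RPKM in chondrocytes. Impad1, which removes the PAP left over from sulfation, was at 14.3 to 15.8 RPKM in osteoblasts, against 15.8 to 22.3 RPKM in chondrocytes. The groups overlapped for all 3 genes. After rescaling all 3 were called higher in chondrocytes, with median-of-ratios log2 differences of -0.44, -0.32 and -0.66. On that scale 29.0% of all tested genes were called higher in chondrocytes, and the rescalings move each difference that way by their construction.

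The linker is a short sugar bridge to a serine of the core protein, and its first enzyme split by isozyme. Xylt1, a xylosyltransferase that begins the linker, stood at 4.03, 2.90 and 3.49 RPKM in osteoblasts, against 30.5, 48.0 and 25.7 RPKM in chondrocytes. The lowest chondrocyte library was several times above the highest osteoblast library (log2 difference -2.96 ± 0.22, adjusted p = 3.57e-05). Xylt2, the second xylosyltransferase, ran the other way at 13.4, 12.3 and 11.5 RPKM in osteoblasts, against 7.08, 5.04 and 7.24 RPKM in chondrocytes (0.86 ± 0.14, adjusted p = 0.00127), a call that held after rescaling. Xylt1 made up 23.1%, 19.1% and 23.3% of the pair in osteoblasts and 81.1%, 90.5% and 78.0% in chondrocytes.

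Later linker enzymes differed little. B4galt7, which adds the first galactose, was at 14.6, 13.3 and 12.9 RPKM in osteoblasts, against 12.6, 13.3 and 11.6 RPKM in chondrocytes and was not called (0.11 ± 0.10, adjusted p = 0.331). B3galt6, which adds the second galactose, was at 2.94 to 3.59 RPKM in osteoblasts, against 2.30 to 2.44 RPKM in chondrocytes (0.32, adjusted p = 0.0242). B3gat3, which closes the linker with glucuronic acid, was at 27.8, 26.6 and 23.4 RPKM in osteoblasts, against 15.9, 16.8 and 17.9 RPKM in chondrocytes (0.59 ± 0.10, adjusted p = 0.00154). Neither call held after rescaling (B3galt6 -0.0067, B3gat3 0.16 by median of ratios), and that of B3galt6 was also lost without osteoblast replicate 1 or 2 or chondrocyte replicate 1 (adjusted p = 0.107, 0.0718 and 0.0530).

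**Figure D2:**
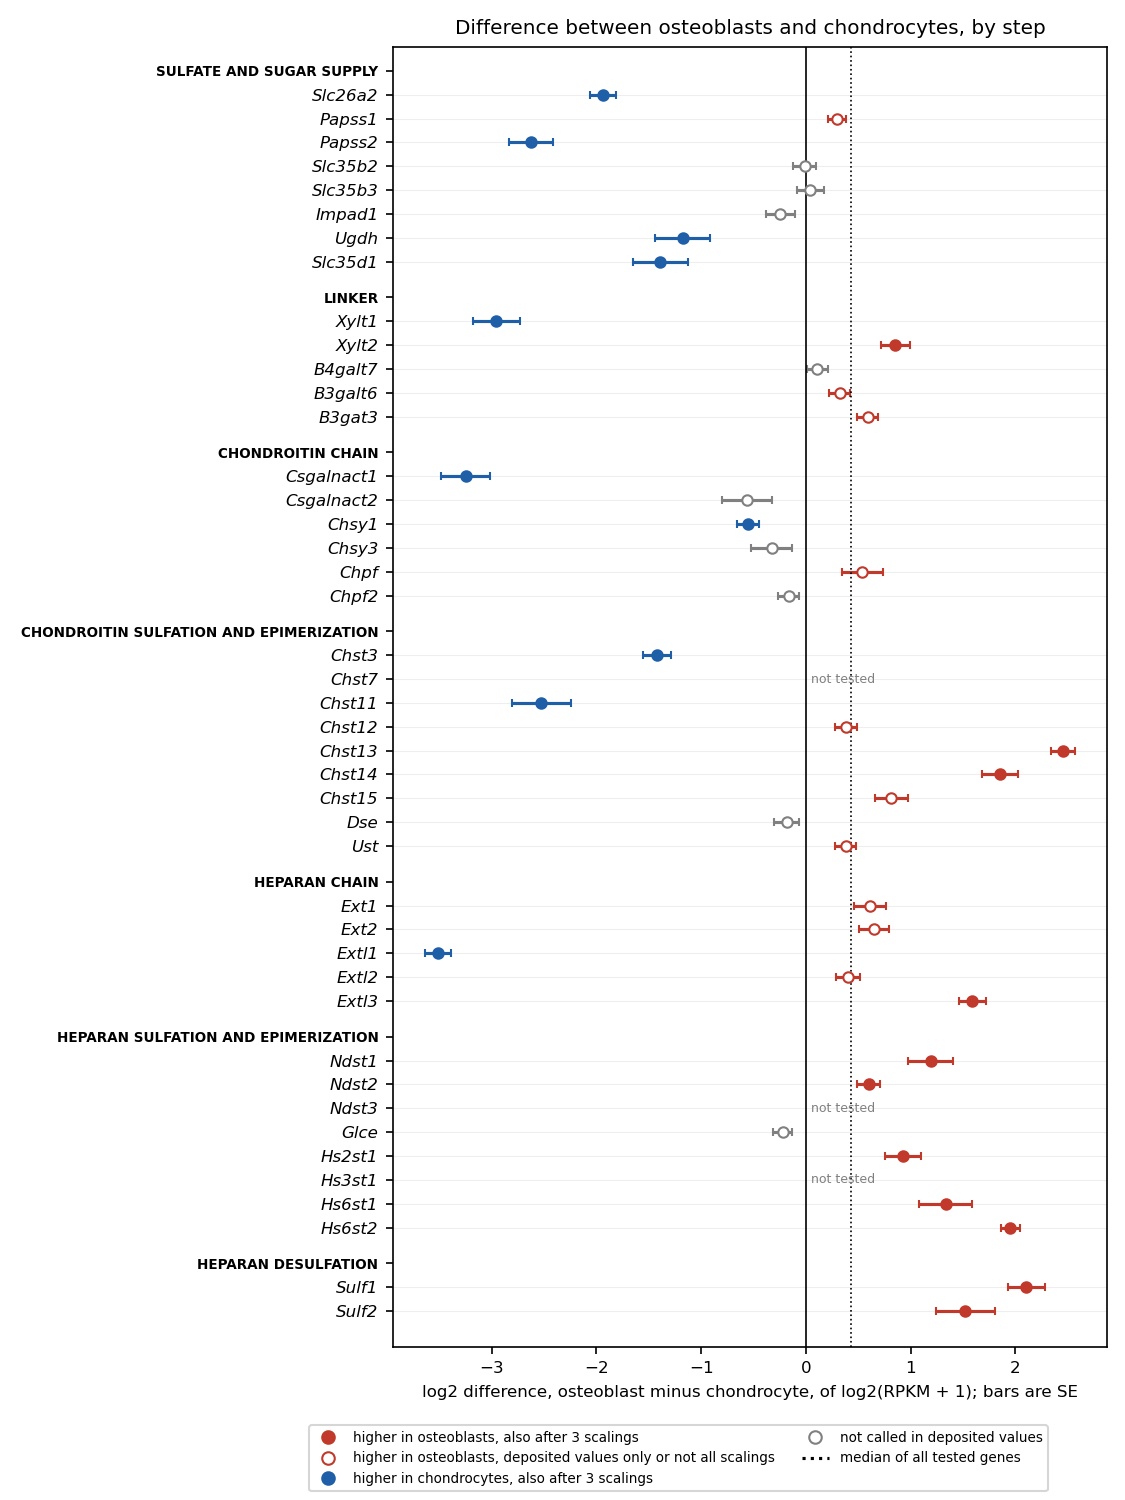
Log2 difference of each member, osteoblast minus chondrocyte, with its SE. Filled points kept their call in the deposited values and after all 3 rescalings, open points did not, and the dotted line is the median of all tested genes at 0.43. Filled blue points gather in the supply and chondroitin steps with Xylt1 and Extl1, and filled red points in the heparan sulfation and desulfation steps with Xylt2, Chst13, Chst14 and Extl3.

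Polymerization of the chondroitin chain gave 2 genes higher in chondrocytes, 1 higher in osteoblasts and 3 not called. The shares over all tested genes were 13.5% higher in chondrocytes and 55.5% higher in osteoblasts. Csgalnact1, which adds the first N-acetylgalactosamine and so commits a linker to chondroitin, was at 0.336, 0.450 and 0.347 RPKM in osteoblasts, against 11.2, 18.2 and 8.60 RPKM in chondrocytes. It was 33.5-fold lower in osteoblasts by mean RPKM (log2 difference -3.25 ± 0.24, adjusted p = 2.98e-05), and it passed the filter on low values through the chondrocyte libraries alone. Csgalnact2, which catalyses the same step, was present in both cell types at 11.8, 10.4 and 11.8 RPKM in osteoblasts, against 14.4, 26.2 and 13.2 RPKM in chondrocytes. It was not called (-0.56 ± 0.24, adjusted p = 0.0684), although the groups did not overlap and it was called without chondrocyte replicate 2 or 3 (adjusted p = 0.0295 and 0.0217) and after rescaling. Csgalnact1 thus held 2.77%, 4.16% and 2.85% of the pair in osteoblasts and 43.6%, 41.0% and 39.4% in chondrocytes, and Csgalnact2 was the larger of the pair in every library.

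Chsy1, a chondroitin synthase that lengthens the chain, was at 25.9, 23.8 and 25.7 RPKM in osteoblasts, against 35.6, 42.2 and 34.5 RPKM in chondrocytes (log2 difference -0.55 ± 0.11, adjusted p = 0.00279). Chsy3, a second synthase, was at 6.19 to 7.57 RPKM in osteoblasts, against 6.62 to 12.1 RPKM in chondrocytes, with overlapping groups (-0.32, adjusted p = 0.174). Chpf, the most abundant gene of the step and a partner of the synthases, was at 84.5, 75.7 and 67.3 RPKM in osteoblasts, against 48.0, 41.5 and 69.4 RPKM in chondrocytes. Chondrocyte replicate 3 lay within the osteoblast range, and the call (0.54 ± 0.20, adjusted p = 0.0402) did not hold after rescaling and was lost without any library other than chondrocyte replicate 3 (adjusted p 0.0558 to 0.132). Chpf2, a related partner, was at 41.5 to 43.9 RPKM in osteoblasts, against 45.1 to 53.4 RPKM in chondrocytes and was not called (-0.16, adjusted p = 0.186), but was called higher in chondrocytes after rescaling (-0.60 by median of ratios).

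Sulfation of chondroitin showed isozymes on opposite sides. Of 9 genes 8 were tested, with 5 higher in osteoblasts, 2 higher in chondrocytes and 1 not called. Chst13, counted for osteoblasts, entered the test through the osteoblast libraries alone. Of all tested genes 55.5% were called higher in osteoblasts and 13.5% higher in chondrocytes. After rescaling 2 of the 5 osteoblast calls held, where 32.2% of all tested genes had an osteoblast call that held. Both chondrocyte calls held too, as every chondrocyte call among all tested genes did. Chst11, a chondroitin 4-O-sulfotransferase needed for cartilage growth in the mouse, stood at 8.61, 8.92 and 10.5 RPKM in osteoblasts, against 54.3, 93.0 and 39.5 RPKM in chondrocytes (log2 difference -2.53 ± 0.28, adjusted p = 0.000216). Chst12, which catalyses the same reaction, was at 39.6, 38.1 and 33.6 RPKM in osteoblasts, against 30.3, 27.0 and 27.2 RPKM in chondrocytes (0.38 ± 0.10, adjusted p = 0.0128). The call of Chst12 was lost without osteoblast replicate 1 or 2 (adjusted p = 0.0595 and 0.0536), and its difference turned to -0.050 after median-of-ratios rescaling.

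Chst13, the third 4-O-sulfotransferase, was at 4.40, 4.45 and 5.58 RPKM in osteoblasts. In chondrocytes it was listed at the table's lowest value of 0.0001 in replicate 1 and at 0.0900 and 0.0843 RPKM in replicates 2 and 3. Its log2 difference of 2.45 ± 0.11 (adjusted p = 4.23e-06) held after rescaling, and only osteoblast libraries reached 1 RPKM. Of the 3 enzymes together, Chst11 held 16.4%, 17.3% and 21.2% in osteoblasts and 64.2%, 77.5% and 59.1% in chondrocytes. Chst13 held 8.37%, 8.64% and 11.2% in osteoblasts and at most 0.126% in chondrocytes.

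Dermatan sulfate is chondroitin in which glucuronic acid has been turned to iduronic acid, and its 4-O-sulfotransferase Chst14 was on the osteoblast side. Chst14 was at 30.0, 27.7 and 25.3 RPKM in osteoblasts, against 6.19, 5.66 and 9.36 RPKM in chondrocytes (3.91-fold, log2 difference 1.85 ± 0.17, adjusted p = 8.82e-05), and the call held after rescaling. Dse, the epimerase that makes iduronic acid, was at 17.9, 18.3 and 16.1 RPKM in osteoblasts, against 20.1, 17.3 and 22.6 RPKM in chondrocytes. The groups overlapped and Dse was not called (-0.18 ± 0.12, adjusted p = 0.201), although it was called higher in chondrocytes without chondrocyte replicate 2 (adjusted p = 0.0302) and after rescaling (-0.61 by median of ratios). Of Chst11 to Chst14 together, Chst14 held 36.3%, 35.0% and 33.7% in osteoblasts and 6.82%, 4.50% and 12.3% in chondrocytes.

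Chst3, which sulfates chondroitin at the 6-O position and whose loss causes a skeletal dysplasia in humans, was at 1.79, 1.23 and 1.38 RPKM in osteoblasts, against 6.11, 4.76 and 5.93 RPKM in chondrocytes (log2 difference -1.42 ± 0.13, adjusted p = 9.11e-05). Chst7, the other 6-O-sulfotransferase, did not pass the filter, at 0.320 to 0.683 RPKM in osteoblasts, against 0.244 to 0.659 RPKM in chondrocytes. Chst15 adds a second sulfate to 4-O-sulfated chondroitin, and it was at 6.63, 5.39 and 8.66 RPKM in osteoblasts, against 3.69, 3.20 and 3.39 RPKM in chondrocytes (0.82 ± 0.16, adjusted p = 0.00263). That call ended after median-of-ratios and upper-quartile rescaling. Mast cells are known to use this enzyme, and the mast cell markers ran in the same order over the osteoblast libraries, a relation whose part in the result was not tested. Ust, which sulfates the uronic acid at the 2-O position, was at 5.89 to 6.86 RPKM in osteoblasts, against 4.47 to 5.04 RPKM in chondrocytes (0.38, adjusted p = 0.0112), a call that did not hold after rescaling and was lost without osteoblast replicate 2 (adjusted p = 0.0546).

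**Figure D3:**
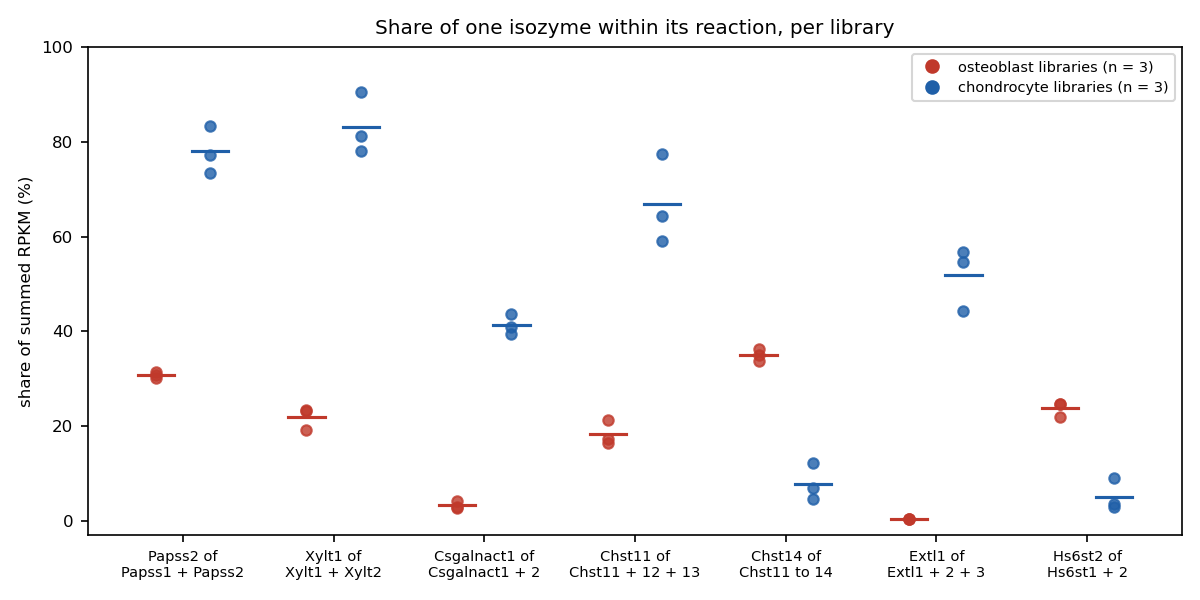
Share of the first-named gene in the summed RPKM of the genes set beside it, 1 point per library and a line at the mean of 3. Osteoblasts are in red to the left and chondrocytes in blue to the right. The Extl genes and Chst11 to Chst14 are related enzymes that differ in reaction or substrate, so their shares are not those of isozymes of 1 reaction. The shares of Papss2, Xylt1, Csgalnact1, Chst11 and Extl1 are lower in all osteoblast libraries than in any chondrocyte library, and those of Chst14 and Hs6st2 are higher.

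Heparan chains are built by the Ext1 and Ext2 complex, and all 5 genes of that step were called, 4 higher in osteoblasts and 1 higher in chondrocytes. The chondrocyte call was that of Extl1, which entered the test through the chondrocyte libraries alone. Of all tested genes 69.0% were called, 55.5% higher in osteoblasts and 13.5% higher in chondrocytes. The median log2 difference was 0.61 over the step and 0.43 over all tested genes. After rescaling 1 of the 4 osteoblast calls held, where 32.2% of all tested genes had an osteoblast call that held. Ext1 was at 24.5, 25.1 and 23.3 RPKM in osteoblasts, against 15.4, 12.6 and 19.4 RPKM in chondrocytes (log2 difference 0.61 ± 0.15, adjusted p = 0.00808). Ext2 was at 55.3, 56.1 and 48.7 RPKM in osteoblasts, against 30.7, 41.0 and 30.0 RPKM in chondrocytes (0.65 ± 0.14, adjusted p = 0.00462). Both subunits are the genes of hereditary multiple exostoses in humans. Neither call held after rescaling, where the median-of-ratios differences were 0.19 and 0.21.

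Extl3, which starts heparan chains by adding the first N-acetylglucosamine, was at 19.3, 17.2 and 18.2 RPKM in osteoblasts, against 5.47, 4.43 and 6.45 RPKM in chondrocytes. It was 3.35-fold higher in osteoblasts (1.59 ± 0.13, adjusted p = 5.02e-05), and the call held after rescaling. Extl1, a related glycosyltransferase, went against the rest of the step. It was at 0.112, 0.101 and 0.0990 RPKM in osteoblasts, against 13.3, 11.8 and 9.93 RPKM in chondrocytes, 112-fold lower in osteoblasts by mean RPKM. Its log2 difference of -3.51 ± 0.12 (adjusted p = 1.24e-06) was the most chondrocyte-sided of the tested members, and 0.562% of all tested genes lay beyond it. Extl1 passed the filter through the chondrocyte libraries alone. Extl2, which can end the linker, was at 7.06 to 7.65 RPKM in osteoblasts, against 4.52 to 6.04 RPKM in chondrocytes (0.40, adjusted p = 0.0167). That call did not hold after rescaling, was lost without osteoblast replicate 1 or 2 (adjusted p = 0.0642 and 0.0585), and turned to -0.050 with the most abundant transcript alone. Extl1 held 0.414%, 0.406% and 0.390% of the 3 Extl genes in osteoblasts and 54.5%, 56.8% and 44.3% in chondrocytes.

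Sulfation of heparan was on the osteoblast side. Of 8 genes 6 were tested, and 5 were higher in osteoblasts, all 5 also after rescaling, with 0 higher in chondrocytes in the deposited values. Hs6st2, counted among them, entered the test through the osteoblast libraries alone, so the filter left only that direction open to it. Among all tested genes 55.5% were called higher in osteoblasts, 32.2% also after rescaling, and 13.5% higher in chondrocytes. Ndst1, which removes acetyl groups and adds N-sulfate and so opens the chain to later sulfation, was at 19.3, 17.1 and 17.7 RPKM in osteoblasts, against 7.76, 4.96 and 10.1 RPKM in chondrocytes (2.37-fold, log2 difference 1.19 ± 0.21, adjusted p = 0.00186). Ndst2, the isozyme known for heparin synthesis in mast cells, was at 8.67, 8.85 and 8.52 RPKM in osteoblasts, against 5.67, 4.63 and 5.94 RPKM in chondrocytes (0.60 ± 0.11, adjusted p = 0.00194). Mast cell markers ran in another order over the osteoblast libraries than Ndst2, and their part in the result was not tested. Ndst3 did not pass the filter, at 0.454, 0.477 and 0.340 RPKM in osteoblasts, against at the table's lowest value in all 3 chondrocyte libraries.

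Hs2st1, which sulfates iduronic acid of heparan at the 2-O position, was at 13.5, 11.2 and 11.7 RPKM in osteoblasts, against 5.60, 4.63 and 7.85 RPKM in chondrocytes (0.92 ± 0.17, adjusted p = 0.00224). Hs6st1, a 6-O-sulfotransferase, was at 12.6, 11.8 and 10.4 RPKM in osteoblasts, against 4.53, 2.29 and 5.75 RPKM in chondrocytes (1.34 ± 0.25, adjusted p = 0.00246). Hs6st2, its isozyme, was at 3.54, 3.84 and 3.39 RPKM in osteoblasts, against 0.166, 0.227 and 0.167 RPKM in chondrocytes, 19.2-fold higher by mean RPKM (1.95 ± 0.09, adjusted p = 4.51e-06). Only osteoblast libraries reached 1 RPKM, and it held 21.9%, 24.6% and 24.7% of the pair in osteoblasts and 3.53%, 9.01% and 2.83% in chondrocytes. Hs3st1, a 3-O-sulfotransferase known for the antithrombin-binding site of heparin, did not pass the filter, at 0.756 to 1.11 RPKM in osteoblasts, against 0.194 to 0.281 RPKM in chondrocytes. Glce, the epimerase of heparan, was the 1 tested gene of the step that was not called, at 5.92 to 6.39 RPKM in osteoblasts, against 7.09 to 7.72 RPKM in chondrocytes (-0.22, adjusted p = 0.0587), and after rescaling it was called higher in chondrocytes (-0.61 by median of ratios).

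Both extracellular sulfatases, which clip 6-O-sulfate from finished heparan chains and so change how they bind Wnt and FGF ligands, were higher in osteoblasts, and both calls held after rescaling. The shares over all tested genes were 55.5% called higher in osteoblasts and 32.2% also after rescaling. Sulf2 was the most abundant member in osteoblasts, at 156, 172 and 130 RPKM there and 42.7, 83.7 and 39.6 RPKM in chondrocytes (2.76-fold, log2 difference 1.52 ± 0.28, adjusted p = 0.00228). Sulf1 was at 9.29, 9.78 and 6.29 RPKM in osteoblasts, against 1.16, 0.914 and 1.47 RPKM in chondrocytes (7.16-fold, 2.10 ± 0.18, adjusted p = 5.33e-05). Sulf2 took 94.4%, 94.6% and 95.4% of their sum in osteoblasts and 97.4%, 98.9% and 96.4% in chondrocytes. The genes that add and that remove 6-O-sulfate were therefore both higher in the same libraries.

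Sums of RPKM over a step, given without a test, did not follow the counts of calls in every step. The 8 supply genes summed to 135 ± 3.74 RPKM in osteoblasts, against 287 ± 77.6 RPKM in chondrocytes (SD, n = 3 each). The 5 linker genes summed to 58.6 ± 4.57 RPKM in osteoblasts, against 72.9 ± 10.97 RPKM in chondrocytes, although 3 of them were called higher in osteoblasts and 1 in chondrocytes. Chondroitin chain genes summed to 162 ± 10.2 RPKM in osteoblasts, against 178 ± 15.1 RPKM in chondrocytes, and chondroitin sulfation and epimerization genes to 112 ± 3.84 RPKM in osteoblasts, against 132 ± 22.2 RPKM in chondrocytes. For heparan, the chain genes summed to 103 ± 5.23 RPKM in osteoblasts, against 72.2 ± 1.89 RPKM in chondrocytes, and the sulfation and epimerization genes to 61.6 ± 3.44 RPKM in osteoblasts, against 31.0 ± 6.26 RPKM in chondrocytes. Both sulfatases together summed to 161 ± 23.3 RPKM in osteoblasts, against 56.5 ± 24.4 RPKM in chondrocytes. The libraries of both groups overlapped for the sums of both chondroitin steps and for no other step.

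The chondrocyte libraries differed among themselves in a regular way. Of the 10 members higher in chondrocytes, replicate 2 was the highest chondrocyte library for 8 and replicate 3 the lowest for 9. Of the 21 members higher in osteoblasts, replicate 3 was the highest chondrocyte library for 13 and replicate 2 the lowest for 14. Such counts were not made over all genes. Genes in general ran in that last order, with median-of-ratios factors of 0.896, 0.771 and 0.919 in chondrocyte replicates 1 to 3. Replicate 2 also had the most Col2a1, the main cartilage collagen, at 48028 RPKM against 37318 and 26727 RPKM in replicates 1 and 3, and replicate 3 the most Col1a1. Without replicate 3 the counts were 21 higher in osteoblasts and 11 higher in chondrocytes, and without replicate 2 they were 20 and 12. Among osteoblast libraries replicate 3 was the lowest for 15 of those 21 members, a count that was not made over all genes either. Its median-of-ratios factor was also the lowest of the osteoblast libraries, so genes in general ran lower there. Its total over all genes was 297133 RPKM, against 320235 and 317715 RPKM in osteoblast replicates 1 and 2.

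The shares of single transcripts were compared for 8 members with several listed transcripts, with no test made. The sources used here do not say how reads were divided between transcripts. Papss2 came almost wholly from NM_001201470, at 99.7% to 99.9% in osteoblasts and 98.7% to 99.4% in chondrocytes. Csgalnact1 transcript NM_001252623 held 0.220%, 2.40% and 2.41% of the gene in osteoblasts, where the gene itself was under 1 RPKM, and 16.8%, 15.7% and 27.9% in chondrocytes. Extl2 transcript NM_021388 held 54.8%, 56.4% and 52.4% in osteoblasts, against 40.7%, 36.3% and 34.9% in chondrocytes, where NM_001163514 was the larger at 55.8% to 62.2%. Sulf1 transcript NM_172294 held 25.2%, 28.2% and 31.3% in osteoblasts and 62.9%, 74.6% and 47.4% in chondrocytes, where Sulf1 was near 1 RPKM.

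Other genes of the pathway that were not members were read from the same fit. Of 17 further synthesis and modification genes 8 were tested, with 3 higher in osteoblasts and 2 higher in chondrocytes. Among all tested genes these shares were 55.5% and 13.5%. None of the 3 osteoblast calls held after rescaling, where 32.2% of all tested genes had an osteoblast call that held. Both chondrocyte calls did, as every chondrocyte call among all tested genes did. Fam20b, the kinase that phosphorylates the linker xylose and speeds linker completion, was at 14.5, 16.2 and 15.1 RPKM in osteoblasts, against 35.3, 46.7 and 27.5 RPKM in chondrocytes (log2 difference -1.18 ± 0.18, adjusted p = 0.000880). Pxylp1, listed as Acpl2, removes that phosphate and averaged 18.6 ± 0.617 RPKM in osteoblasts, against 10.7 ± 3.24 RPKM in chondrocytes (0.78, adjusted p = 0.00867), a call that did not hold after rescaling. Ugp2, which makes UDP-glucose, was not called at 16.1 ± 0.988 RPKM in osteoblasts, against 15.4 ± 1.38 RPKM in chondrocytes.

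The proteins that carry the chains were also divided. Of 10 tested chondroitin and dermatan sulfate core proteins, 4 were higher in each cell type and 2 were not called. Over all tested genes 55.5% were called higher in osteoblasts and 13.5% higher in chondrocytes. Vcan, versican, averaged 17.5 ± 2.96 RPKM in osteoblasts, against 0.700 ± 0.308 RPKM in chondrocytes (log2 difference 3.45, adjusted p = 6.05e-06), and only osteoblast libraries reached 1 RPKM. Epyc, epiphycan of growth cartilage, averaged 6.01 ± 0.721 RPKM in osteoblasts, against 174 ± 111 RPKM in chondrocytes (-4.47, adjusted p = 6.67e-05), and the chondrocyte marker Acan, aggrecan, averaged 29.6 ± 6.48 RPKM in osteoblasts, against 655 ± 296 RPKM in chondrocytes. Dcn, decorin, was not called, at 301 ± 80.0 RPKM in osteoblasts, against 264 ± 120 RPKM in chondrocytes.

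Heparan sulfate core proteins counted 8 of 13 higher in osteoblasts, 7 of them also after rescaling, 4 higher in chondrocytes and 1 not called. Over all tested genes 55.5% were called higher in osteoblasts, near the share here, 32.2% also after rescaling, and 13.5% higher in chondrocytes. Gpc2, counted for osteoblasts, entered the test through the osteoblast libraries alone. Gpc1, a glypican anchored to the cell surface, averaged 214 ± 7.08 RPKM in osteoblasts, against 45.8 ± 19.8 RPKM in chondrocytes (2.28, adjusted p = 0.000240). Sdc4, a syndecan, ran the other way at 28.3 ± 1.16 RPKM in osteoblasts, against 239 ± 66.0 RPKM in chondrocytes (-3.003, adjusted p = 1.42e-05). Sdc1 was not called, at 58.3 ± 4.84 RPKM in osteoblasts, against 42.1 ± 21.1 RPKM in chondrocytes.

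**Figure D4:**
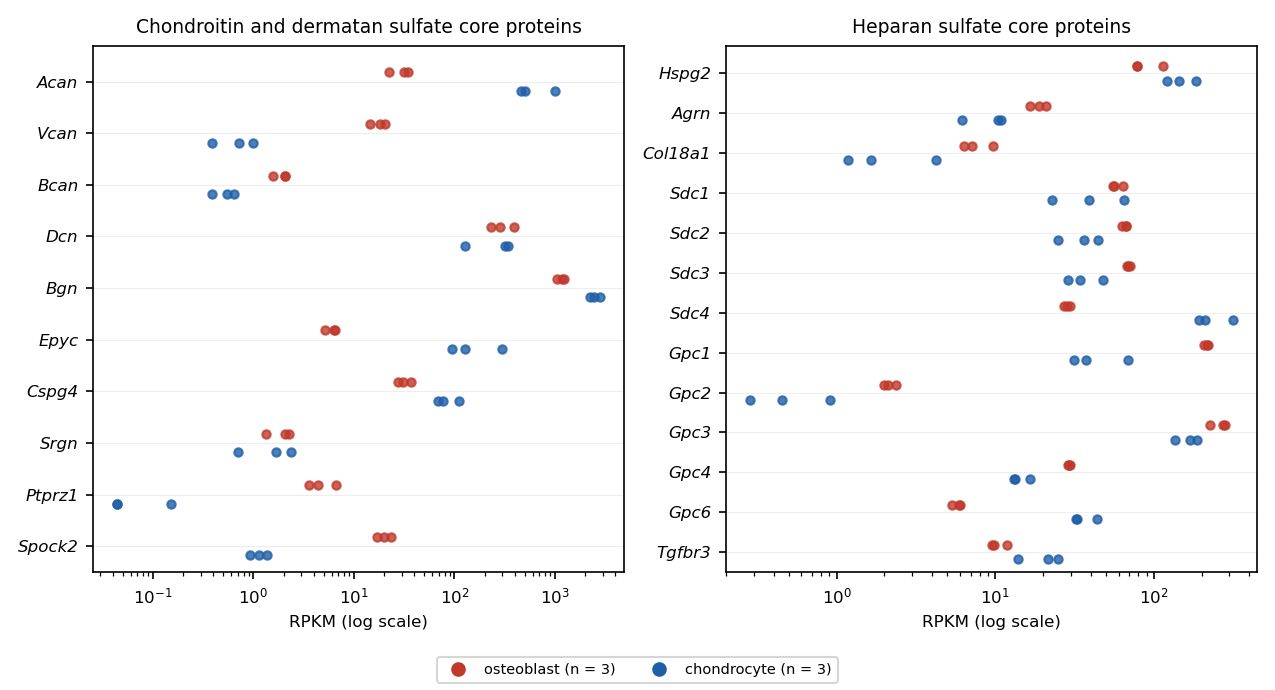
RPKM on a log scale of the tested core proteins of chondroitin and dermatan sulfate (left) and heparan sulfate (right), 1 point per library, osteoblasts in red above chondrocytes in blue. Acan, Epyc, Sdc4 and Gpc6 lie lower in all 3 osteoblast libraries than in any chondrocyte library, and Vcan, Spock2, Ptprz1 and Gpc1 lie higher.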

How the data were processed

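RNA-seq libraries of 3 osteoblast and 3 chondrocyte samples were analysed from 1 table of RPKM that the authors deposited, with 31055 RefSeq transcripts and 1 value per library. Per the submitters' processing notes, TopHat2 2.0.8 and build mm9 were used; the sources used here do not name the counting program. No count is listed. From the steps of low values and GENCODE M21 transcript lengths, read totals were estimated, and a level of 1 RPKM over 2 kb of transcript came to 54.0 to 71.8 reads per library. Of the low values 58.9% to 60.7% came within 0.05 of a whole read, against 10% by chance, with totals fitted to these same values.

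Transcripts sharing a symbol were added up, and the 11218 genes at 1 RPKM or more in 3 or more libraries entered a two-sided limma test (limma 3.58.1, R 4.3.3) of log2(RPKM + 1) with variance trend, robust moderation and Benjamini-Hochberg adjustment. The procedure was tested on simulated data. The replicate number was not a term. Alternatives were other pseudocounts and filters, 3 rescalings (median of ratios, upper quartile, total without the 100 most abundant genes), no trend, a replicate block, 1 transcript per gene and each library left out. Members and lists were chosen with earlier results of these data known. Named are all members and, from each other list, the called gene of largest difference in each direction and the uncalled gene of highest level, of which 1 is not reported here; Acan and the transcripts were chosen after their values were seen. Promoter windows came from RefSeq on GRCm38.p6, which is not the build of the table, matched by symbol for 34 of 43 members.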

Additional observations from a re-analysis of the deposited data

How the results depend on the processing

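The scaling of the libraries moved the counts most. Members higher in osteoblasts numbered 21 in the deposited values, 11 after median-of-ratios and after upper-quartile rescaling, and 12 after scaling to the total without the 100 most abundant genes; members higher in chondrocytes numbered 10, then 18, 19 and 18. The rescalings divide osteoblast libraries by larger factors than chondrocyte libraries, which lowers each difference by their own construction. Differences that changed sign under them, in the order median of ratios, upper quartile and reduced total, were Papss1 (-0.13, -0.14 and -0.092), Slc35b3 (-0.32, -0.33 and -0.29), B4galt7 (-0.30, -0.31 and -0.27) and Chst12 (-0.050, -0.056 and -0.01). B3galt6 changed sign under the first 2 (-0.0067 and -0.011) and Ust under the upper quartile (-0.0035). With 1 library left out Slc35b2 ran from -0.073 to 0.085 and Slc35b3 from -0.073 to 0.11, each changing sign without chondrocyte replicate 2, and Extl2 was at -0.050 with its most abundant transcript alone; the cause was not tested. Leaving out 1 library gave 15 to 21 members higher in osteoblasts and 10 to 12 higher in chondrocytes. Deviations from the group mean had correlations of 0.079, 0.0096 and -0.155 between same-numbered libraries. With 3 libraries per group these values cannot show whether same-numbered libraries share a source. With a replicate block 18 members were higher in osteoblasts and 10 in chondrocytes, and Papss1, B3galt6 and Chpf lost their calls. Pseudocounts of 0.1 and 5 and moderation without trend gave 21 and 10. Over all 40 tested members and all settings, 552 of the recomputed differences kept direction and side of the threshold; a call was lost 49 times and gained 29 times, changes of sign included. Low genes limit the rest: Chst7, Hs3st1 and Ndst3 could not be tested under the filter. Without it 22 members were higher in osteoblasts and 10 in chondrocytes. Ndst3 and Hs3st1 were then called higher in osteoblasts (adjusted p = 0.00021 and 0.00119), at low levels, Chst7 was not called (0.476), and Chpf lost its call (0.0630). With a mean of at least 5 RPKM required, 34 members were tested, with 17 higher in osteoblasts and 9 in chondrocytes.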

Other observations

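Breakdown of the chains was read from 18 genes of the lysosome and of cleavage, of which 17 were tested. Of these, 10 were higher in osteoblasts, 7 of them also after rescaling, 2 higher in chondrocytes, and 5 had no call. Of all tested genes 55.5% were called higher in osteoblasts, 32.2% also after rescaling, and 13.5% higher in chondrocytes. Hpse, heparanase, which cuts heparan sulfate chains, averaged 3.35 ± 0.0923 RPKM in osteoblasts, against 0.735 ± 0.191 RPKM in chondrocytes (log2 difference 1.33, adjusted p = 5.13e-05), and only osteoblast libraries reached 1 RPKM. Idua, which removes iduronic acid, averaged 3.76 ± 0.195 RPKM in osteoblasts, against 7.24 ± 1.14 RPKM in chondrocytes (-0.78, adjusted p = 0.00110).

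Of 8 genes listed for keratan sulfate, another sulfated chain, 6 were tested. Of these, 5 were higher in osteoblasts, 4 of them also after rescaling, and 1 was higher in chondrocytes. Over all tested genes 55.5% were called higher in osteoblasts, 32.2% also after rescaling, and 13.5% higher in chondrocytes. B4galt1, a galactosyltransferase that serves many glycans, averaged 37.5 ± 1.27 RPKM in osteoblasts, against 6.61 ± 1.44 RPKM in chondrocytes (2.36, adjusted p = 1.19e-05). B3gnt2, which extends lactosamine chains, averaged 3.01 ± 0.180 RPKM in osteoblasts, against 4.97 ± 1.06 RPKM in chondrocytes (-0.56, adjusted p = 0.0109).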
